A study of Arabidopsis thaliana with 7 samples.

Results

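Long upstream open reading frames (uORFs) are short reading frames in the leader of a messenger RNA, ahead of the main coding sequence, that are themselves long enough to encode a sizeable peptide. Members were selected on length, at least 150 nt, and on the deposited score, whose mean over 8 libraries had to be at least 100. This left 1250 of the 14472 uORFs listed, on 1193 transcripts of 843 genes. Neither their length nor their mean score is therefore a finding.

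A scanning ribosome that translates a uORF may stop there, or may resume scanning and reinitiate at the main start codon, and a stop codon far ahead of the main reading frame can also expose a transcript to nonsense-mediated decay. In plants a small set of uORFs encodes peptides conserved across species, and several of these arrest ribosomes in response to a metabolite such as a polyamine or sucrose. Footprints on a uORF therefore report translation of the leader, while poly(A) RNA over the same bases reports how much of that leader is present.

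The roots came from 14 d old Arabidopsis thaliana seedlings of the Columbia background. For 7 d every seedling had 500 µM phosphate. Control seedlings stayed at that level on fresh plates for another 7 d, and low phosphate seedlings spent those days at 0 µM. Footprints and poly(A) RNA came from a line that expresses a FLAG-tagged ribosomal protein under the 35S promoter, named RPL18B in the protocols and RPL8 in the sample characteristics, so ribosomes were recovered from the cells in which that promoter is active. Double-stranded RNA (dsRNA) was taken from untagged Col-0. Each assay and condition had 2 bioreplicates, and because nothing further says how they were raised, p-values measure only the spread between them. Coding reads per library numbered 7156329 to 12817826 for footprints and 18262547 to 26746252 for poly(A) RNA, and dsRNA reads 2735264 to 8249514. Of 5 root hair markers, all were at 1 CPM (counts scaled to a common library total) or more in both poly(A) control libraries, as were all 3 endodermis markers, while the 5 green tissue markers summed to 96.5 to 244 CPM there.

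The score could be decoded for most of the uORFs checked, which had at least 4 libraries above 0 and a distance of at least 5 times their length. In 1563 of 1901 uORFs where it could be checked (82.2%), the score equalled the reads on the uORF multiplied by a distance and divided by the uORF's length, with the decimals dropped. The distance is the genomic one from the first to the last coding base. With the distance of an unrelated gene this held for 0.368%. Among long uORFs it held for 267 of 389. Where it holds, a score divided by the gene's coding reads is a relative density. That is the reads per base of the uORF over the reads per base between the main start and stop codons. In the other uORFs this reading is an assumption. For all uORFs the quotient is called the footprint ratio or the poly(A) ratio below. The distance includes introns, which raises both ratios of a gene by the same factor, and the coding reads are per gene while the distance is per transcript. Reads could be recovered from the score for 864 of the 1250 uORFs, with a median of 23 to 38 reads per library. In 312 of these the known distance fitted. In the rest the distance was inferred as near the largest that the scores allow. The inferred distance was within 1% of the known one in 1353 of 1407 transcripts, of uORFs of any length, whose known distance fitted. Elsewhere it could not be checked.

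The long uORFs had a median length of 225 nt, with quartiles of 180 and 315 nt. There were 897 under 300 nt, 312 from 300 to under 600 nt and 41 of 600 nt or more. Their start lay a median of 165 nt into the transcript. Long uORFs sat on the transcript numbered 1 of their gene in 265 cases (21.2%), against 1065 of the 2852 shorter uORFs (37.3%) that passed the same score. Many rows described the same stretch in several isoforms: the 1250 rows held 1086 distinct sets of values, and 977 once proportional copies were merged. One gene contributed as many as 16 rows, while 630 genes contributed 1. The length limit fell among similar uORFs, with 32 members at exactly 150 nt and 37 uORFs of 147 nt that passed the score. The members of highest mean score at 150 nt were those of ADK1 (6316), an adenosine kinase gene, and BT2 (3556), a BTB and TAZ domain gene. Just outside, at 147 nt, stood MYB59 (2001), a MYB transcription factor gene, and AT3G15430 (1770). At the score limit, AT1G61430 (100.4) and CTF18 (100.6) lay just inside and AT2G32040 (99.8) and AT1G56120 (99.5) just outside.

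Long uORFs carried footprints at about the density of the coding span, and less poly(A) RNA than it. Over the 1047 distinct uORFs with at least 10 coding footprints in each library, the median footprint ratio was 1.36 and 1.17 in the control libraries and, in low phosphate, 1.04 and 1.22. For poly(A) RNA the median ratio, over 1081 uORFs, was 0.42 and 0.684 in control, against 0.438 and 0.446 in low phosphate. All 4 footprint medians were above all 4 poly(A) medians, and control replicate 2 was the highest poly(A) library. In single uORFs, the 4 footprint ratios all lay above the 4 poly(A) ratios in 653 of 1047 (62.4%) and all below in 10 (0.955%). The same was seen over all uORFs tested, at 64.1% and 2.33%, so the share above was near that background. Without poly(A) control replicate 2 it was 815 of 1047 (77.8%), against 74.3% of all uORFs.

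Compared with shorter uORFs, long uORFs had lower median footprint ratios and higher median poly(A) ratios in each of the libraries. Not all quartiles went this way. In each library the lower quartile of the footprint ratio was higher for long uORFs (0.787 against 0.716 in control replicate 1). The upper quartile of the poly(A) ratio was lower for them (0.792 against 0.810 in control replicate 1). The shorter ones had median footprint ratios of 1.92, 1.5, 1.19 and 1.53 in the same order, and median poly(A) ratios of 0.235, 0.439, 0.241 and 0.211. The footprint ratio exceeded the poly(A) ratio 2.22-fold at the median in control for long uORFs (quartiles 1.5 and 4.09, n = 1036 with poly(A) RNA above 0) and 4.42-fold for shorter ones (quartiles 1.7 and 13.9, n = 1877). These are descriptions of 2 libraries each, and the difference between the length classes was not tested. In both classes a uORF low in 1 assay could pass the score limit through the other, which bears on these ratios. The poly(A) score was listed at 0 in both control libraries for 11 of the long uORFs and 248 of the shorter ones.

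**Figure D1:**
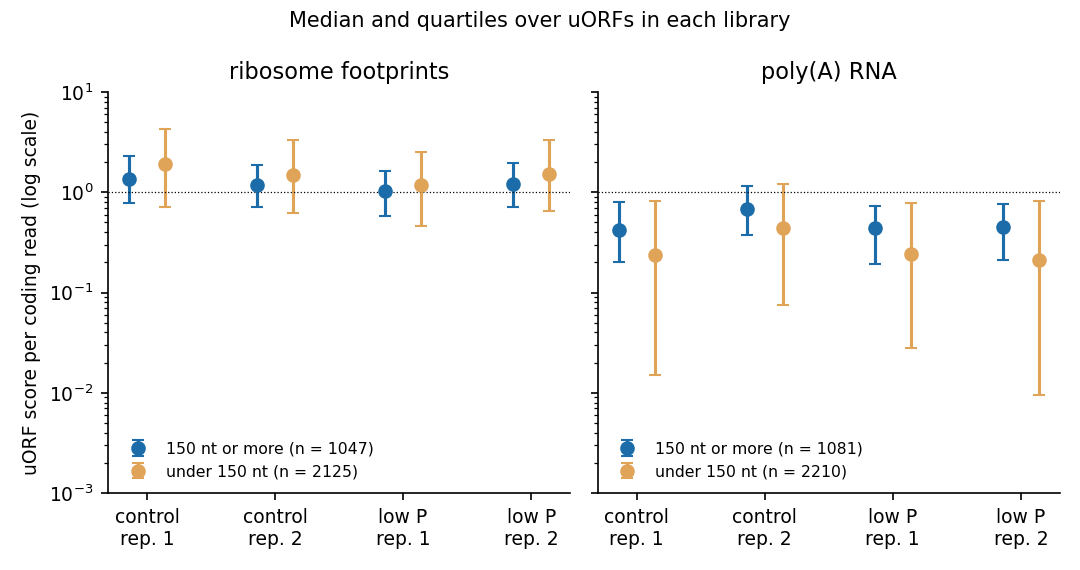
Median (point) and quartiles (bars) of the uORF score per coding read in each of the 8 libraries, on a log scale, for uORFs of 150 nt or more and for shorter uORFs, in footprints (left) and poly(A) RNA (right). Long uORFs sit near 1 in footprints (1.04 to 1.36) and at 0.42 to 0.684 in poly(A) RNA, with a narrower spread than the shorter ones.

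Within the long uORFs, the spread of the ratios narrowed with length while the footprint median stayed in place. In control replicate 1 the quartiles of the footprint ratio were 0.729 and 2.59 under 300 nt, 0.909 and 1.97 from 300 to under 600 nt and 0.844 and 1.59 at 600 nt or more. The poly(A) median of the same replicate went from 0.351 through 0.559 to 0.687 in these classes. None of the 35 uORFs of 600 nt or more had a footprint ratio under 0.25 in any library. Spearman's rho between length and ratio in control, over 1047 uORFs that share libraries and often genes, was -0.033 for footprints and 0.23 for poly(A) RNA. The transcript number moved with the ratios too: the median poly(A) ratio in control was 0.236 and 0.387 on transcripts numbered 1 (n = 263) and 0.486 and 0.751 on others (n = 818). Whether a stretch called a uORF in one isoform is coding in another was not tested.

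The 6 longest members lie in genes of varied roles. In AT1G63490 a uORF of 1329 nt (442 codons before the stop) scored 171 and 233 in control footprints and 510 and 296 in low phosphate footprints, and 945, 510, 534 and 601 in poly(A) RNA. Its footprint ratios were 1.76, 2.33, 3.11 and 3.05 and its poly(A) ratios 1.66, 1.44, 1.19 and 1.34, so the footprint ratios were all higher and the low phosphate ones the highest. SETH5 (879 nt) had footprint ratios of 1.64, 1.78, 1.34 and 1.27 above poly(A) ratios of 0.913, 0.738, 0.653 and 0.603. AT5G49470 (867 nt), which encodes the Raf-like kinase RAF10, had footprint ratios from 1.5 to 2.31 above poly(A) ratios from 1.12 to 1.33. The other 3 had overlapping ratios: AT3G20010 (921 nt), the chromatin remodelling gene FRG1, AT5G26760 (897 nt) and AHG2 (894 nt), which encodes a poly(A) ribonuclease. In AT5G26760 they differed least, at 0.525 to 0.651 in footprints and 0.395 to 0.581 in poly(A) RNA. AHG2 overlaps another gene, AT1G55880, in the reference table.

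The highest footprint scores in control came from a few uORFs of strongly covered genes and from 1 extreme case. The uORF at bases 80 to 292 of transcript AT4G23420.3 scored 101494 and 47991 in control footprints and 148605 and 206233 in low phosphate. Its poly(A) scores were 129, 223, 82 and 82. The recovered footprints numbered 8637, 4084, 12646 and 17550 on these 213 nt, against 68, 57, 78 and 78 over the whole coding sequence. Of the 842 host genes with a position in the reference table, 235 overlap another gene there. AT4G23420 overlaps the U1 spliceosomal RNA gene U1.2, and the share of these reads that came from U1 was not tested. The unscaled low phosphate scores were higher in both libraries. Scaled by the coding libraries, as in the test, the conditions overlapped, and the change did not pass (log2 0.77 ± 0.58 SE, limma adjusted p = 0.987).

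The other high scores came with footprint ratios that overlapped the poly(A) ratios in AT4G15610 and ADK1 and lay above them in the rest. AT4G15610, which encodes a CASP-like membrane protein, had a uORF of 237 nt with footprint ratios of 1.78, 1.52, 1.46 and 1.62 and poly(A) ratios of 1.25, 1.7, 1.14 and 1.24, which overlap. A 399 nt uORF of AT1G62660 had footprint ratios of 2.27, 1.66, 1.38 and 1.7, all above poly(A) ratios of 0.681 to 0.813. In that gene another uORF of 378 nt, on a different isoform, had 0.841, 0.616, 0.513 and 0.631 against 0.253 to 0.334. LAC7, a laccase gene, had a 174 nt uORF with footprint ratios of 1.52, 1.39, 1.13 and 1.25 above poly(A) ratios of 0.133 to 0.419. ADK1 had ratios of 2.29 to 3.46 in footprints and 1.21 to 2.53 in poly(A) RNA, so that the assays overlapped in that uORF.

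The extremes of the footprint ratio were of different kinds. The 4 highest in control were AT4G23420, described above, AT5G17460, AT3G13700 and AT5G15950. AT5G17460 had footprint ratios of 215, 122, 167 and 249 and poly(A) ratios of 106, 260, 117 and 175, which overlap, with 13 to 22 coding footprints. AT3G13700 had footprint ratios of 42.1 to 150 (149.6 in control replicate 2, with 11 coding footprints) and poly(A) ratios of 44.4 to 63.6, also overlapping, and its gene overlaps PRA1.F4. In these 2 genes the uORF stretch was dense in both assays. In AT5G15950 it was dense in footprints and not in poly(A) RNA, as described below.

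At the low end, GSTF9, a glutathione transferase gene, had 9970 to 19229 coding footprints and a uORF of 156 nt with footprint ratios of 0.095, 0.029, 0.035 and 0.046. Its poly(A) scores were 53, 5, 0 and 65 beside 25322 to 43922 coding reads, so that little poly(A) RNA covered this leader. FQR1, which encodes a quinone reductase, had footprint ratios of 0.03 to 0.086 and poly(A) ratios of 0.026 to 0.067, which overlap. AT2G39210 was alike, at 0.049 to 0.112 and 0.026 to 0.051. AT2G37150 was the reverse case: its footprint scores were 0, 0, 30 and 0, while its poly(A) scores were 296, 122, 296 and 317. Its poly(A) ratios of 0.39 to 0.751 thus all lay above its footprint ratios. Its gene overlaps AT2G37140, so its counts may hold reads of both.

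The long uORFs of genes known for conserved peptide uORFs stood high in footprints, and less so in poly(A) RNA. Of 40 such genes, 33 had a uORF row and 11 had a long uORF that passed the score: 10 of these had at least 10 coding footprints in every library. All 4 footprint ratios lay above all 4 poly(A) ratios in the 10, against 64.1% of all uORFs. Their median footprint ratio was 8.49 and 6.31 in control and 3.28 and 6.67 in low phosphate, and their median poly(A) ratio 0.781, 0.91, 0.703 and 0.83 (n = 11), above the median of all long uORFs in each library. In control the footprint ratio exceeded the poly(A) ratio by 2.68-fold to 45.1-fold, with a median of 8.25-fold, where all long uORFs had a median of 2.22-fold. The list was drawn up with earlier results of these data known, and no test was made of it.

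**Figure D2:**
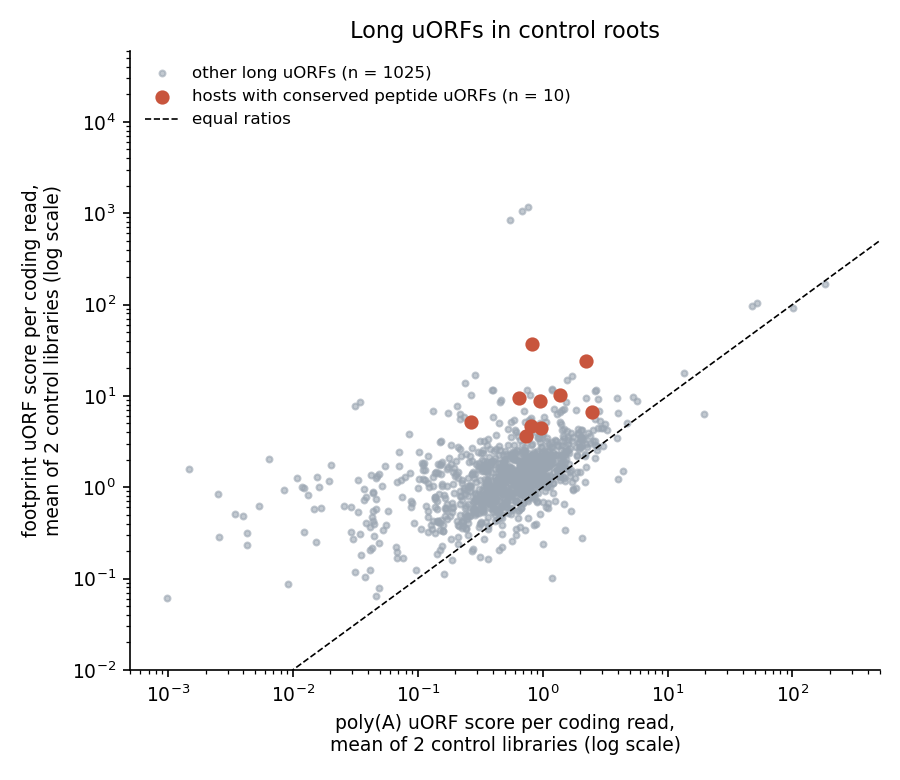
Footprint ratio against poly(A) ratio of 1035 long uORFs in control roots, each the mean of 2 libraries, on log axes (12 uORFs at 0 in either assay are left out). The dashed line marks equal ratios, and the 10 uORFs of conserved peptide hosts (large points) all lie above it, by 2.68-fold to 45.1-fold.

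AT5G15950 was the most extreme of them. Its uORF of 159 nt, at bases 274 to 432 of transcript AT5G15950.2, held 416 and 241 recovered footprints in control, against 573 and 244 in low phosphate. The main coding sequence held 72 and 48 footprints in control and 338 and 30 in low phosphate. Low phosphate replicate 1 stood apart with its 338 coding footprints, and also had the most poly(A) reads on this gene (3810, against 733 to 1990 in the other libraries). The footprint ratio was 39.6 and 34.4 in control and 11.6 and 55.7 in low phosphate, while the poly(A) ratio was 0.716 to 0.925.

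The other conserved peptide hosts had lower ratios. SAC51 encodes a basic helix-loop-helix factor whose translation is known to be tied to thermospermine through its uORF. The gene overlaps NPH3 in the reference table, so its counts may hold reads of both. Its footprint scores were 753, 394, 604 and 459 beside 59, 62, 105 and 41 coding footprints. The footprint ratios of 12.8, 6.36, 5.75 and 11.2 were all above the poly(A) ratios of 0.409 to 0.73, and control and low phosphate overlapped. PAO2, a polyamine oxidase gene, had footprint ratios of 2.93, 4.27, 2.59 and 3.08 above poly(A) ratios of 0.62 to 0.902. AT5G09460, with only 7 to 26 coding footprints, was the member under the minimum, at 8.88 to 25.7 in footprints and 0.276 to 0.441 in poly(A) RNA. AT5G50010 had 15 to 34 coding footprints and footprint ratios of 2.97 to 6.27 above poly(A) ratios of 0.612 to 0.91.

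Among the rest, WNK5, a kinase gene, had 64, 53, 52 and 59 recovered footprints on its uORF of 189 nt and ratios of 9.27, 8.23, 4.82 and 7.32, against 0.703 to 1.05 in poly(A) RNA. AT4G25670 had ratios of 11.9, 8.43, 8.48 and 9.65 against 0.983 to 1.68, and its gene overlaps AT4G25660. AT4G25690 had 6.46, 3.77, 2.39 and 4.0 against 0.23 to 0.344. AT1G36730 had 4.64, 4.37, 2.86 and 3.74 against 0.803 to 0.981. In WNK5 and AT1G36730 both control footprint ratios were above both low phosphate ones. AT1G70780 had 7.71, 5.51, 3.58 and 6.03, and its poly(A) ratio was above 1 as well (2.08 to 2.85). AT1G23150 came closest to overlap, with footprint ratios of 39.2, 8.84, 2.63 and 8.86 beside poly(A) ratios of 2.17 to 2.28. Its coding footprints were only 1.63, 2.75, 8.28 and 3.51 CPM, so the ratio of 39.2 rests on few coding reads. In 9 of the 10 uORFs the lowest footprint ratio was that of low phosphate replicate 1, which was also the lowest library in 552 of all 1047 long uORFs (52.7%).

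**Figure D3:**
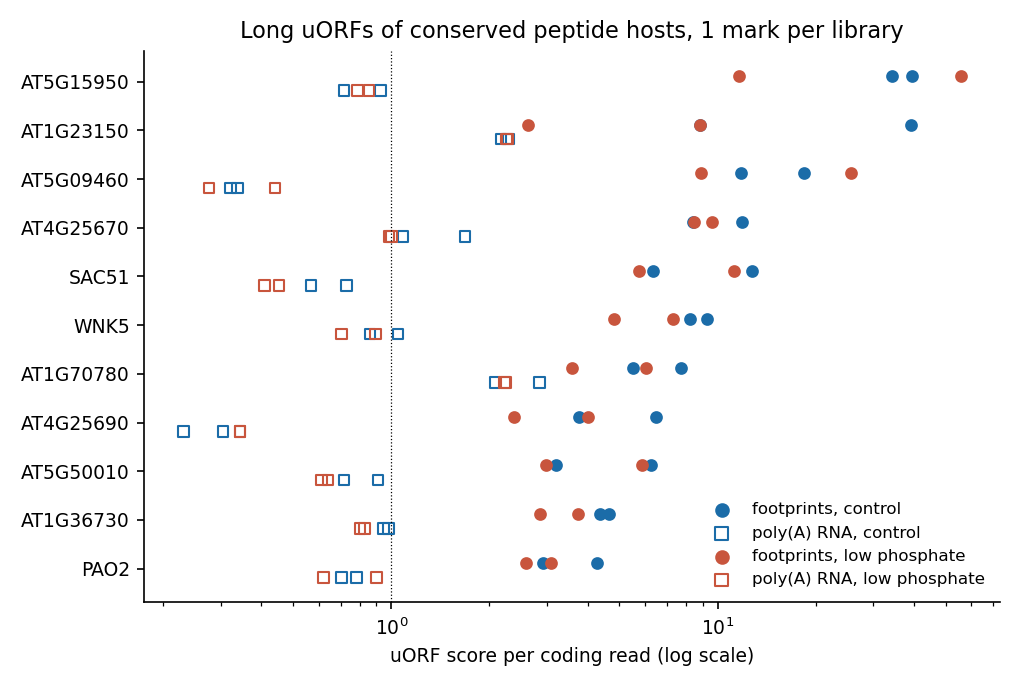
uORF score per coding read, on a log scale, of the 11 long uORFs in conserved peptide hosts, with 1 mark per library: filled circles for footprints and open squares for poly(A) RNA, in control and low phosphate. In every gene the 4 circles lie to the right of the 4 squares, and circles of the 2 conditions overlap in most genes.

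Where reads were recovered (741 distinct uORFs), a long uORF usually held a small part of a gene's footprints. The median was 15.2% to 21.3% of the coding footprints per library, and 5.15% to 9.01% of the coding reads in poly(A) RNA. In 24 uORFs the uORF held more footprints than the whole coding sequence in all 4 libraries, and in 6 of these it also held more poly(A) reads. These counts are not of separate stretches: AT4G23420, AT3G13700 and AT5G17460 each entered with uORFs of equal length from different isoforms. Shorter uORFs were not counted in this way, so no background share is given. The 18 without the poly(A) excess included AT5G15950, AT1G70780 and AT4G25670 of the conserved peptide hosts. AT4G23420, which overlaps U1.2, entered with several isoforms. PRIN2, AT1G61430, AT2G02630 and AT4G25670 are also among the 18 and overlap other genes, so their counts may hold reads of those. The 18 also included HPA1 and HISN6B, which were picked out after their values were seen. These 2 genes encode near-identical histidine synthesis enzymes, between which reads may be split or shared.

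No long uORF passed an adjusted p of 0.05 between low phosphate and control. In footprints, limma on log2(score + 10) called 0 of 1086 distinct long uORFs, where 0 of all 3318 uORFs were called (0%). At an unadjusted p under 0.05 there were 27, beside 153 of all 3318 uORFs, and edgeR on recovered reads also called 0. In poly(A) RNA 0 long uORFs were called, where 1 of 3318 (0.0301%) was. An unadjusted p under 0.05 was found in 46, beside 242 of all 3318. Without poly(A) control replicate 1, limma called 21 long uORFs in poly(A) RNA, 1 higher and 20 lower (1.93%, against 3.86% of all uORFs). With a pseudocount of 1 it called 4 (0.368%, against 1.6%), HK3 and AT1G34320 among them. The footprint change beyond the poly(A) change was called in 0, with 11 at an unadjusted p under 0.05, beside 121 of all 3318. The ratio to coding reads was called in 0 of 1047 for footprints and 0 of 1081 for poly(A) RNA, and 0% of all uORFs were called in either. At an unadjusted p under 0.05 there were 28 and 23, beside 160 of 3172 and 149 of 3291 over all uORFs. The median standard error of a footprint change was 0.56 on the log2 scale, so changes of about 2-fold in a single uORF were not detectable with 2 libraries per condition. Larger changes, such as those of AT3G57470 and AT3G06770 below, were not called either, so the limit lay above 2-fold.

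As a group, long uORFs had lower footprint scores in low phosphate when scaled by the coding libraries, but this direction depended on the scaling. The median change was -0.23 on the log2 scale, with 731 of 1086 below 0, beside -0.30 over all uORFs. Scaled by the median of the uORF scores themselves, the median of the long uORFs was 0.17. With the coding scaling it was -0.09 when footprint replicate 1 of either condition was left out, and -0.38 (control) or -0.34 (low phosphate) when replicate 2 was. Both low phosphate libraries lay below both control libraries in 280 of 1086 (25.8%) and above in 91 (8.38%), against 27.5% and 8.29% of all uORFs, so the shares were close to the background. The median change of the footprint ratio was -0.25, beside -0.32 over all uORFs. It was below 0 in 787 of 1047 long uORFs (75.2%) and in 74.4% of the shorter ones. The median change of the poly(A) ratio was -0.30, beside -0.27 over all uORFs. Single libraries moved both: with replicate 1 left out, the footprint ratio median was -0.11 (control) or -0.09 (low phosphate), and with replicate 2 of either condition left out it was -0.37. Leaving out poly(A) control replicate 1 took the poly(A) ratio median to -0.59, and leaving out replicate 2 took it to -0.01, with 554 of 1081 below 0. All 10 conserved peptide hosts had a footprint ratio change below 0, beside the 75.2% of long uORFs, with a median of -0.47, and none was called.

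The uORFs of smallest p in footprints, none of them called, moved in both directions. AT3G57470 scored 147 and 110 in control and 55 and 55 in low phosphate (log2 -1.57 ± 0.49 SE), on 8, 6, 3 and 3 recovered reads. AT3G06770 scored 13 and 27 in control and 137 and 109 in low phosphate (1.74 ± 0.55), on 2, 4, 20 and 16 reads. The conditions did not overlap in either, but single reads weigh heavily at this depth. AT3G62270, the boron transporter gene BOR2, scored 1643 and 1002 in control and 755 and 640 in low phosphate (-1.43 ± 0.48), on 100, 61, 46 and 39 reads. Its coding footprints had a log2 change of -0.80, which was not called either. The limma adjusted p of all 3 was 0.987.

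In poly(A) RNA, the 3 uORFs of smallest p were listed at or near 0 in low phosphate. HK3, a cytokinin receptor gene, scored 50 and 75 in control and 0 and 0 in low phosphate, which is 2, 3, 0 and 0 reads. AT1G34320, which encodes PSK SIMULATOR 1, scored 82, 61, 0 and 0, from 4 and 3 reads and then none. AT3G63340 scored 199 and 399 in control and then 28 and 0. Their limma adjusted p was 0.139, 0.108 and 0.139. Footprints stayed on all 3: those of HK3 scored 1289, 834, 986 and 960 and those of AT3G63340 scored 1026, 770, 912 and 684. Unscaled, control and low phosphate overlapped in both genes. Scaled by the coding libraries, both low phosphate scores lay below both control scores in each gene, and neither footprint change was called. In the difference of the 2 assays, AT1G04850 and SUVH1, a SET domain gene, came with AT1G34320 as the smallest p. The poly(A) scores of AT1G04850 were 0, 0, 41 and 144 and those of SUVH1 were 29, 0, 48 and 175, all few reads, and limma's smallest adjusted p was 0.903.

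For the footprint ratio, the 3 smallest p, again uncalled, were all decreases in value. AT5G14210 had ratios of 2.09 and 1.78 in control and 0.346 and 0.5 in low phosphate, and its gene overlaps IMD1 and HEMG2. AT4G39420 had 8.98 and 6.44 against 1.89 and 2.44. EDM2, a chromatin-linked regulator of disease resistance, had 7.01 and 4.78 against 1.39 and 1.88, and its gene overlaps AT5G55380. The conditions did not overlap in these, at 7 to 37 recovered footprints per library, and limma gave an adjusted p of 0.822. For the poly(A) ratio, NUDT10, a nudix hydrolase gene, had 2.52 and 2.73 in control and 1.03 and 1.21 in low phosphate, and AT5G12950 had 0.307 and 0.353 against 0.039 and 0. With AT1G34320 these were the 3 smallest, at an adjusted p of 0.964 by limma.

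The phosphate transporter PHT1;4 was the host gene with the clearest response. Its coding footprints were 88.3 and 104 CPM in control and 503 and 515 in low phosphate, and its coding poly(A) reads 52.7 and 68.2 CPM and then 331 and 322. It rose by log2 2.40 ± 0.17 SE in footprints and 2.43 ± 0.17 in poly(A) RNA (edgeR adjusted p = 2.17e-04 and 1.45e-04). Its uORF of 183 nt, at bases 44 to 226 of transcript AT2G38940.1, held 22 and 20 footprints in control and 71 and 90 in low phosphate. In poly(A) RNA it held 19 and 48 reads, and then 70 and 79. The low phosphate values were higher in both assays, without overlap in unscaled reads, but the uORF changes of 1.34 ± 0.63 and 1.16 ± 0.63 did not pass (limma adjusted p = 0.987 and 0.728). The footprint ratio was 0.323 and 0.243 in control and 0.101 and 0.186 in low phosphate, and its change of -1.09 ± 0.58 did not pass either (limma adjusted p = 0.822). PHT1;4 is thus a gene whose uORF density stayed below that of its coding span in all 8 libraries.

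PHT1;1, a phosphate transporter with a near-identical neighbour gene between which reads may be shared, had a uORF of 168 nt with many footprints and almost no poly(A) RNA. It held 204, 76, 148 and 218 footprints and 1, 2, 0 and 6 poly(A) reads, so that its footprint ratios of 1.19, 0.498, 0.356 and 0.677 stood beside poly(A) ratios of at most 0.005. Control and low phosphate overlapped, and the footprint change of -0.03 ± 1.00 turned to 0.39 when scaled by the uORF scores. Without footprint control replicate 1 it was 0.70, and without low phosphate replicate 1 it was 0.53. The other 28 phosphate genes of the list of 30 had no long uORF that passed the score. Of the list's coding sequences, 29 were tested, and 15 were higher and 1 lower in poly(A) RNA, beside 0.931% and 0.252% of all genes. In footprints 15 were higher, beside 0.911% of all genes. Root hair markers moved with low phosphate as well, from 171 to 187 CPM summed over the 5 in control poly(A) RNA to 391 to 412 CPM, and from 330 to 397 CPM in footprints to 893 to 973 CPM. In bulk roots, more cells of a type and more RNA per cell cannot be told apart, and the part of cell makeup in these changes was not tested.

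**Figure D4:**
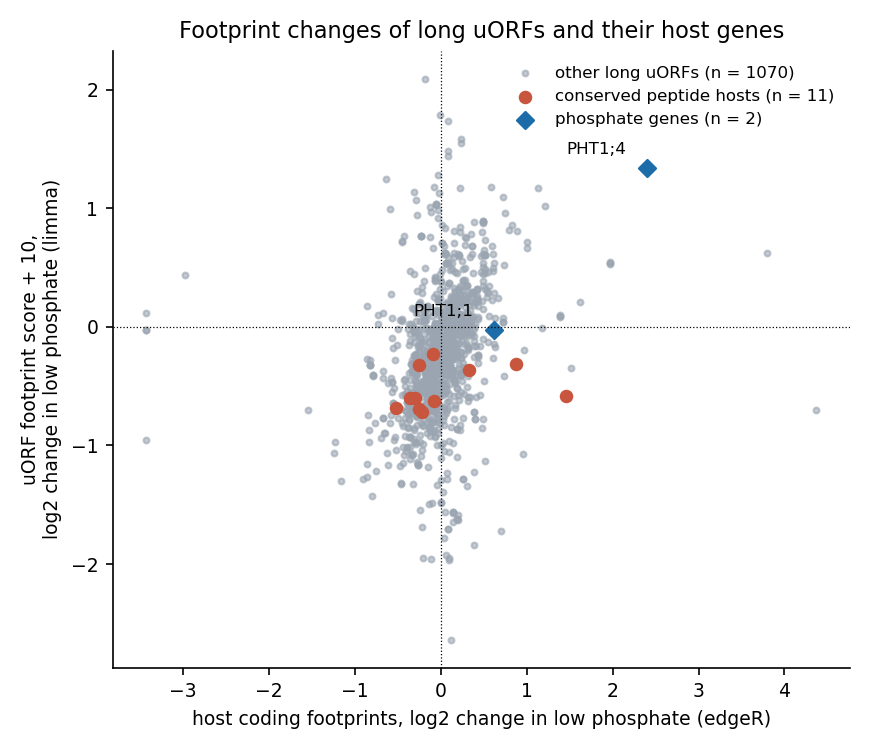
log2 change in low phosphate of the uORF footprint score + 10 (limma, vertical axis) against that of the host gene's coding footprints (edgeR, horizontal axis) for 1083 long uORFs. PHT1;4 stands at 2.40 for the coding sequence and 1.34 for the uORF, and the 11 uORFs of conserved peptide hosts lie below 0 on the vertical axis, where 7 of them remain below 0 when scaled by the uORF scores themselves.

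Few other host genes changed. In poly(A) RNA 3 of 840 were higher (0.357%, against 0.931% of all genes) and 1 was lower (0.119%, against 0.252%). In footprints 2 were higher (0.238%, against 0.911%) and 1 was lower (0.119%, against 0.282%). CBL1, a calcium sensor gene, rose in both, from 16.1 and 14.9 CPM to 31.2 and 35.4 in poly(A) RNA (log2 1.10 ± 0.19) and from 10.3 and 14.4 to 26.1 and 31.1 in footprints (1.21 ± 0.21). Its gene overlaps another protein-coding gene, AT4G17616, so its counts may hold reads of both. AT3G44510 rose in poly(A) RNA from 15.8 and 19.9 to 40.6 and 38.2 CPM (1.14 ± 0.20). UMAMIT29, an amino acid transporter gene, fell in poly(A) RNA from 72.7 and 48.2 to 17.2 and 25.5 CPM (-1.50 ± 0.25). BT1, a gene of the same BTB and TAZ domain family as BT2, fell in footprints from 175 and 254 to 88.8 and 102 CPM (-1.17 ± 0.22). The edgeR adjusted p of these 5 changes lay between 0.0191 and 0.0341.

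The calls other than PHT1;4 were lost in part when single libraries were left out. Leaving out any 1 poly(A) library ended the poly(A) calls of CBL1 and AT3G44510, and UMAMIT29 lost its call when poly(A) replicate 1 of either condition was left out. In footprints, CBL1 lost its call without control replicate 1 or either low phosphate replicate. BT1 lost its own without footprint control replicate 2, without either footprint low phosphate replicate and without either poly(A) low phosphate replicate. Translational efficiency, the footprint change beyond the poly(A) change, was called in 0 of 840 host genes by edgeR and 0 of 842 by DESeq2. At an unadjusted p under 0.05 there were 8 and 5, beside 397 of 19866 and 276 of 23418 over all genes. Of all genes, 0% were called.

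dsRNA of the host genes changed far more often. It was higher in 73 of 838 (8.71%, against 10.2% of all genes) and lower in 46 (5.49%, against 5.57%). Without dsRNA low phosphate replicate 2 the count was 258 in both directions together (30.7%, against 28.1% of all genes). Without control replicate 1 it was 32 (3.82%, against 4.65%), and without control replicate 2 it was 36 (4.28%, against 5.03%). PHT1;4 rose from 44.4 and 34.8 to 729 and 658 CPM (log2 4.30 ± 0.27, edgeR adjusted p = 7.45e-56). UMAMIT29 fell from 14.2 and 20.3 to 0.214 and 0.366 CPM (-5.66 ± 0.62), and BT1 from 72 and 106 to 16.2 and 23 CPM (-2.02 ± 0.25). AT3G44510 rose by 2.89 ± 0.29. The others of smallest p all rose, by at most 2.38: PGSIP3, a gene of xylan substitution, AT5G67430, SAT32, P5CS1 of proline synthesis, PAO4, a polyamine oxidase gene, and AT4G33770, an inositol phosphate kinase gene. SAT32 overlaps the calcium pump gene ACA1 in the reference table, and P5CS1 and PAO4 each overlap another gene, so their counts may hold reads of both.

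Genes for reinitiation and nonsense-mediated decay were not called at the coding level. Of the 11 listed, edgeR called 0 in poly(A) RNA or footprints. In dsRNA 2, the near-identical S6 kinase genes AT3G08720 and AT3G08730, were higher, beside 10.2% of all genes. The conserved peptide hosts had 1 gene higher and 1 lower in coding poly(A) RNA among 40, beside 0.931% and 0.252% of all genes. Footprints gave the same counts, beside 0.911% and 0.282% of all genes, and neither gene was a host of a long uORF. In dsRNA 5 of 38 were higher and 2 lower, beside the 10.2% and 5.57% of all genes given above.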

How the data were processed

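Footprints (fragments of 26 to 32 nt, per the labels' protocols), poly(A) RNA and dsRNA were mapped by the authors against TAIR10; the submitters' processing notes name CASAVA 1.8, TopHat 1.3.1 and Bowtie2 2.2.9. Neither the read counter nor its use of strand is stated. For poly(A) RNA and dsRNA, both conditions carry one treatment text, so titles gave the condition. The deposited coding and dsRNA values are raw counts per gene. The deposited uORF values are a score, decoded as described in the report. The deposited UTR values are RPKM per region: only the coordinates in the region names were used, beside 1 description, the median RPKM of the most covered 5′ UTR region of 485 member transcripts (31.5 to 45.5 in footprints, 14.2 to 24.3 in poly(A) RNA). No per-sample column was left unmapped (0).

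Scores were tested with limma 3.58.1 (R 4.3.3) on log2(score + 10), scaled by TMM sizes of the coding libraries, over all distinct uORFs past the score limit of 100. These fold changes understate low values. Ratios used a prior count of 0.5 on coding reads. Host genes were tested with edgeR 4.0.16 quasi-likelihood, two-sided, with Benjamini-Hochberg adjusted p under 0.05. Alternatives used DESeq2 1.42.0. The tests were also run on simulated counts with a fixed spread and no shift of uORF coverage in single libraries. These data do show such shifts, so the simulation does not measure how the tests perform here. Gene names came from RefSeq's TAIR10.1 table. The members and gene lists were chosen with earlier results of these data known. Named uORFs are the 3 of smallest p per test, the 6 longest, the 6 highest in control footprints, the 4 highest and 4 lowest control footprint ratios, those of listed hosts and those beside each limit; named host genes are those called, at most 10 per test. Of 16 genes listed for reinitiation and decay, 5 were dropped because the reference gives another name. Intervals and standard errors cover counting and replicate spread only. No uORF sequence was analysed here, and 1 uORF of a listed host is not reported here.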

Additional observations from a re-analysis of the deposited data

How the results depend on the processing

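The uORF footprint test, its difference from poly(A) RNA and the host efficiency test called 0 members under every alternative run. Poly(A) scores gave 4 calls with a pseudocount of 1, and 0 to 21 when a library was left out. Host calls in poly(A) RNA ranged from 1 to 5 with a library left out (1 to 2 where it was a poly(A) library), those in footprints from 1 to 5, and those in dsRNA from 32 to 258. In host footprints DESeq2 called 10 (1.19%, against 2.05% of all genes) and no low-count filter gave 6 (0.713%, against 1.81%). The median log2 footprint ratio of long uORFs in control, 0.41, was 0.97 with a pseudocount of 100, 0.56 at a mean score of at least 200 and -0.11 with no minimum on the score, so its place above 0 depends on the score limit; the median log2 poly(A) ratio, -0.83, was -1.46 with no minimum. Leaving out a control replicate gave 0.32 to 0.51 and -1.19 to -0.51. The footprint change of the PHT1;1 uORF, -0.03, reversed to 0.39 with scaling by the uORF median and ranged from -0.76 to 0.70 with a library left out (0.53 without footprint low phosphate replicate 1); the cause was not tested.

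With the replicate number as a block, the footprint ratio test called 1 long uORF (0.0955%, against 0.504% of all uORFs). The poly(A) ratio test called 3 (0.278%, against 1.98%), and all were lower. Host calls came to 9 in poly(A) RNA (1.07%, against 2.12% of all genes) and 9 in footprints (1.07%, against 2.10%). Other counts stayed within 1.5 times. The labels do not say that a number pairs samples, and with 2 pairs the data cannot settle it. Replicate differences of footprints in control and low phosphate correlated at -0.165, and those of other groups from -0.017 to 0.227; with the pairing crossed, an alternative added after seeing the data, 0 long uORFs were called in footprints or in the footprint ratio. Merging proportional copies, also added later, called 0. Depth limits single uORFs, with a median of 23 to 38 reads per library, to large changes.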
